A study of Drosophila melanogaster with 16 samples.

Results

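The comparison described here is that of clamp RNAi and control embryos of Drosophila melanogaster collected 2 to 4 hr after egg laying, taken across genes. Its members were the genes whose mean normalized read count over both conditions was at least 20 in the authors' table for this collection, and 7399 of 15682 listed genes met that rule. The genes on either side of the rule had means of 20 and 19.96. The MTD control mothers carried 3 Gal4 drivers of the female germline, namely P{COG-Gal4:VP16}, with P{Gal4-nos.NGT}40 on another chromosome, and P{nos-Gal4-VP16}. The clamp RNAi mothers carried the same drivers in 1 copy, together with a y[1] sc[*] v[1] chromosome and the hairpin transgene P{TRiP.GLC01858}attP2. Both kinds of mother were virgins of 3 to 5 days mated to yw males, so the drivers act in the mother's germline and the embryos of both groups are of mixed sex. RNA came from whole, bleach-dechorionated embryos, with 4 libraries in each of the 4 groups of genotype and time and 16 in all. Whether libraries of a group stem from different crosses is not stated, and the deposited p-values therefore reflect the spread between these 4 libraries, which may be technical.

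The deposited tables call the conditions A and B, without a genotype for either. Condition B is the one with far less Clamp RNA, and every direction below is stated as higher or lower in B. A gene was called when its DESeq adjusted p in the authors' deposited table was under 0.05. The tables give means of the 4 libraries of a condition. For most genes with condition means up to 1500 the whole reads of the 4 libraries could be solved for exactly from those means, and 4942 of the 7399 genes were split in this way. The libraries are called A1 to A4 and B1 to B4, by their scaling, and these names do not match the replicate numbers in the labels. The sums of the condition means were 14013202 normalized reads in A and 13880047 in B. The size factors of the libraries ran from 0.878 to 1.209.

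CLAMP binds GA-rich DNA through zinc fingers, and it is known for its part in dosage compensation and at the histone gene cluster. The early fly embryo lives on RNA laid down by the mother until its own genome is switched on. Zelda, the product of zld, opens much of the genome for that switch, and CLAMP is known to act beside it. In the 2 to 4 hr window the embryo forms cells around its nuclei, gastrulates, and turns on the genes that lay out its axes, segments and tissues.

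The targeted gene is given first, and since condition B is named by its low Clamp RNA, its fall is a description and no check of the labels. Clamp had 64.8, 87.8, 56.0 and 123 normalized reads in B1 to B4, and its mean in A was too high to split. For Clamp the authors' deposited table gave means of 3225 in A and 83.0 in B, a log2 of -5.28 and a DESeq adjusted p printed as 0. The fall was of the same kind at 0 to 2 hr, where the log2 of Clamp in the authors' deposited table was -6.04.

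The marker genes of this comparison moved in both directions. The cell death gene rpr (reaper), whose product frees caspases from their inhibitor, had 103, 88.1, 66.3 and 112 normalized reads in A1 to A4 and 555, 743, 469 and 943 in B1 to B4. The groups did not overlap, and for rpr the authors' deposited table gave a log2 of 2.87 with a DESeq adjusted p of 2.05e-09. Corp, a p53 target named as companion of reaper, had 223, 254, 255 and 208 in A and 641, 798, 604 and 861 in B, again without overlap. For Corp the authors' deposited table gave a log2 of 1.63 (DESeq adjusted p = 1.42e-14). The Hox gene Antp, which sets the identity of the thorax, had 415, 245, 285 and 310 in A and 75.5, 63.3, 17.97 and 67.8 in B. Every library of B was below every library of A, and for Antp the authors' deposited table gave a log2 of -2.48 (DESeq adjusted p = 1.78e-12). The maternal and zygotic activator zld was abundant in both conditions, at means of 22658 in A and 13719 in B in the authors' deposited table, a log2 of -0.72 (DESeq adjusted p = 5.66e-10). At 0 to 2 hr none of rpr, Corp, Antp and zld was called. For Antp the earlier log2 in the authors' deposited table was -3.52 (DESeq adjusted p = 0.118), a larger fold at a mean of 51.0, while rpr, Corp and zld were at -0.14, -0.31 and 0.02. The libraries of 0 to 2 hr are others than those above, and they were uneven for Antp. It had 135, 46.9, 192 and 1.11 normalized reads in those of A and 21.8, 2.03, 2.15 and 6.76 in those of B.

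Across all 7399 genes, 2110 were called. Of these, 968 genes were higher in B, which is 13.1% of all, and 1142 were lower, which is 15.4%. The median log2 of all genes was -0.01, that of the genes called higher 0.57 and that of the genes called lower -0.65. At least 2-fold changes were found for 224 of the genes called higher and 331 of those called lower, and at least 4-fold changes for 80 and 75. Most calls were thus below 2-fold in either direction. In the split genes, all 4 libraries of B lay above all 4 of A in 955 of 4942 genes (19.3%) and below them in 765 (15.5%). Of the split genes called higher, 610 of 655 were apart in this way, and of those called lower, 520 of 567.

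**Figure D1:**
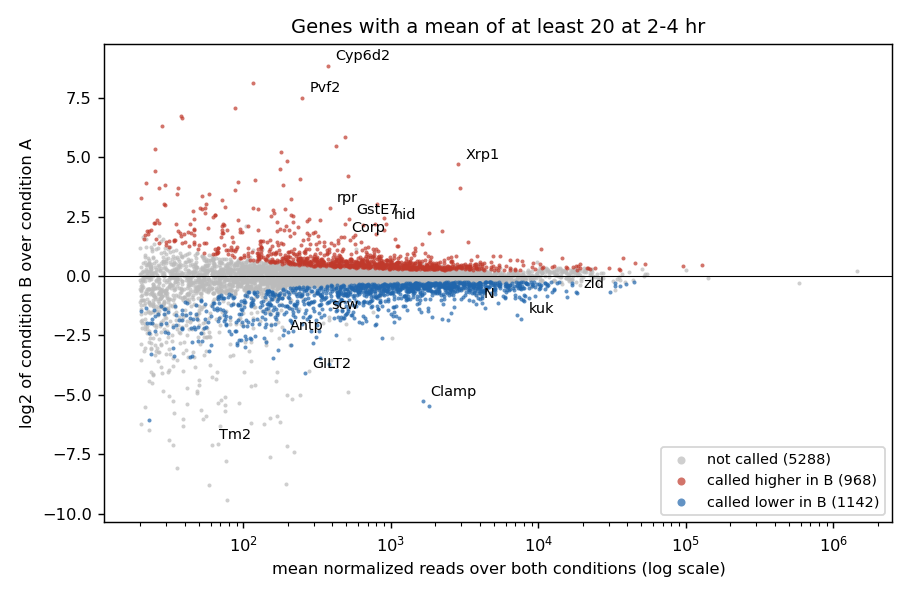
Each point is a gene, placed by its mean normalized reads over both conditions (log axis) and by the log2 of condition B over condition A, in the authors' deposited table. Red points are the 968 genes called higher in B, blue points the 1142 called lower and grey points the rest, with 1 gene listed at 0 in B left out, and the far grey points below -5 are genes that were not called.

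Library A4 stood apart from the rest. Over 13 split marker genes of late muscle it held 12454 summed normalized reads, against 570.1, 210.0, 323.1 in A1 to A3 and 410.1, 251.2, 149.0 and 283.4 in B1 to B4. Over 26 markers of late epidermis, gut and trachea its sum was 9953, against 172.3 to 792.7 in the other 7 libraries. The sum of 16 late neuron markers was 2697 in A4 and 347.8 to 599.1 elsewhere, and that of 18 hemocyte and fat body markers 4336 against 1855 to 2451. Tm2, a muscle tropomyosin, shows the contrast at a single gene, with 0, 0 and 0 reads in A1 to A3, 486 normalized reads in A4, and 3.55, 0, 0 and 0 in B1 to B4. Osi7, a gene of the cuticle-forming epidermis, had 8.28, 0 and 0 in A1 to A3, 1751 in A4 and at most 5.33 in B. Neither gene was called. Of 174 genes that were at least 4-fold lower in B without being called, 172 could be split, and A4 was the highest library in 170 of them and over 4 times every other library in 144.

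**Figure D2:**
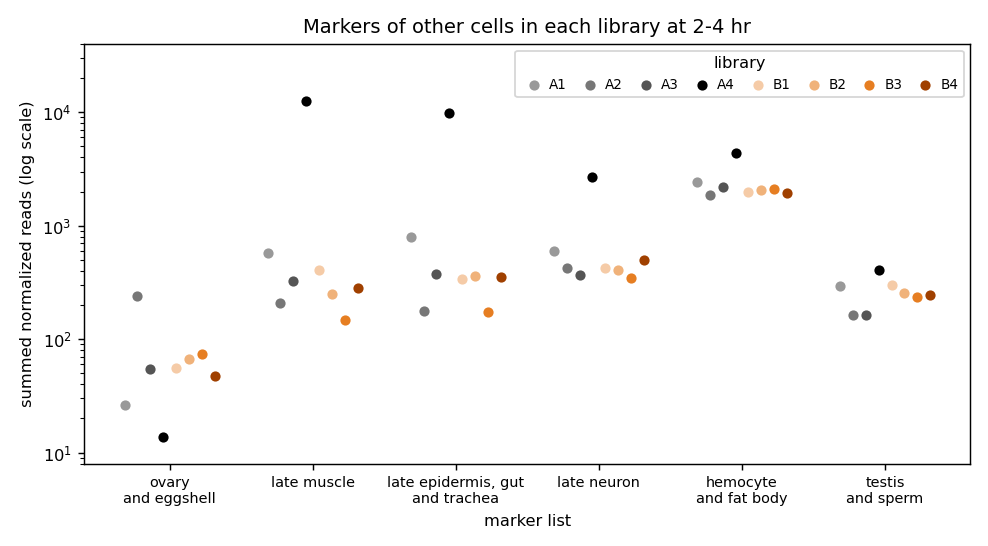
The summed normalized reads (log axis) of 6 lists of markers of other cells, with 1 point per library at 2 to 4 hr. Library A4 is the highest point for late muscle (12454), late epidermis, gut and trachea (9953), late neuron (2697) and hemocyte and fat body markers (4336), while its ovary and eggshell sum (13.67) is the lowest of that list.

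When A4 was left out, all 567 split genes called lower and all 655 called higher kept their direction. This was largely given by the choice of called genes, since 520 and 610 of them had the libraries of A and B fully apart already. The ovary and testis marker sums varied among libraries as well. The 19 ovary and eggshell markers summed to 13.67 to 238.7 with A2 highest, and 4 to 13 of them were at 0 in a library. The 20 split testis and sperm markers summed to 162.9 to 410.0, with A4 highest and 7 to 13 at 0. In RNA of whole embryos, fewer cells of a type and less RNA per cell cannot be told apart. Further libraries leaned to one side without standing apart. Among the 567 split genes called lower, B3 was the lowest library of B in 292 (51.5%), while over all split genes it was so in 26.3%. A1 was the highest of A in 36.9% of the split genes called lower, against 20.4% of all.

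The largest rises were of genes that were nearly silent in A. Cyp6d2, a cytochrome P450, had 3.31, 1.02, 1.04 and 1.14 normalized reads in A and 434, 691, 1017 and 856 in B. For Cyp6d2 the authors' deposited table gave a log2 of 8.85 (DESeq adjusted p = 1.68e-29). Without A1 it was 9.46. Its 7 reads in A against 2953 in B give a fold of 422, with a 95% exact interval from 204 to 1049 that covers counting error only. Pvf2, which encodes a growth factor of the PDGF and VEGF kind, had 4.14, 0, 0 and 6.83 in A and 398, 547, 504 and 550 in B. For Pvf2 the authors' deposited table gave a log2 of 7.51 (DESeq adjusted p = 9.69e-106), and without A4 it was 8.50. Its receptor gene Pvr and the other ligand genes Pvf1 and Pvf3 were not called. The authors' deposited table lists -0.39 for Pvr, 0.01 for Pvf1 and -0.38 for Pvf3 on the log2 scale. Without A4 they were 0.40, -0.06 and -0.14 in the same order.

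Other genes close to silence in A were of mixed kind. CG13857 held 4 reads in A and 950 in B, a fold of 237 with a 95% exact counting interval from 92.4 to 873. All 4 of those reads in A came from library A1. Obp56d, an odorant-binding protein gene, held 3 and 308 reads, a fold of 103 (34.8 to 500). Uro, which encodes urate oxidase, held 3 and 300 reads, a fold of 99.9 (33.9 to 487). CG8620, CG12224 and CG31664 had folds of 141, 75.6 and 39.2 between their read sums, with intervals of 60.3 to 436, 25.5 to 369 and 16.5 to 122. Leaving out 1 library of A moved the log2 of Uro to 7.62, of CG12224 to 7.20 and of CG31664 to 6.01 (without A1), and of CG8620 to 8.14 (without A4), from 6.74, 6.32, 5.36 and 7.05 in the authors' deposited table. All 6 of these genes had every library of B above every library of A, as had 19.3% of all split genes. They were named for their large rises in these same libraries, so this is no separate support.

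The capsid-like Arc genes, which descend from a retrotransposon Gag protein, were both higher. Arc2 had 13.2, 25.6, 8.28 and 27.3 normalized reads in A and 834, 908, 833 and 756 in B. For Arc2 the authors' deposited table gave a log2 of 5.48 (DESeq adjusted p = 1.11e-164). Arc1 rose less, at a log2 of 2.18 in the authors' deposited table (DESeq adjusted p = 8.06e-22). CG12290 and CG6656 also rose. CG12290 had 11.6, 7.17, 8.28 and 39.9 in A and 898, 1160, 869 and 923 in B. CG6656 had 14.9, 13.3, 7.25 and 18.2 in A and 441, 336, 388 and 372 in B. Itgbn, a beta integrin gene, had 9.93, 12.3, 5.18 and 33.0 in A and 269, 336, 325 and 439 in B. A4 was the highest library of A for CG12290 and Itgbn, and their log2 without it was 6.74 and 5.23.

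Besides Clamp, the largest falls were of genes from several families. CG32512 had means of 3541 in A and 79.96 in B in the authors' deposited table, a log2 of -5.47 with a DESeq adjusted p listed as 0. CG2187 had 628, 700, 779 and 720 in A and 39.1, 57.6, 62.4 and 56.7 in B, and a log2 of -3.71 in the authors' deposited table. GILT2 and GILT3, of a family named after a lysosomal thiol reductase of mammals, fell while GILT1 did not pass. GILT2 had 467, 586, 404 and 527 in A and 40.8, 29.3, 26.4 and 20.01 in B. GILT3 had 31.4, 74.8, 30.03 and 45.6 in A and 1.78, 0.94, 0 and 0 in B, which are 180 reads against 3, a fold of 60.0 lower with a 95% exact counting interval from 20.2 to 294. Without B1 the log2 of GILT3 was -7.17, beside -6.06 in the authors' deposited table. For GILT1 the authors' deposited table gave a log2 of -0.01 (DESeq adjusted p listed as 1). Wsck, a receptor kinase-like gene, had 266, 275, 330 and 297 in A and 22.2, 24.6, 23.3 and 36.7 in B.

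Some of the lowest genes varied widely among libraries of B. The atypical cadherin gene ft (fat) had 1056, 289, 501 and 570 in A and 118, 48.2, 11.6 and 41.1 in B. For ft the authors' deposited table gave a log2 of -3.46 (DESeq adjusted p = 0.000296), and without B1 it was -4.17. The Hippo pathway genes ex and kibra and the planar polarity gene dachs were also lower. For ex the values were 533, 321, 357 and 497 in A and 155, 143, 105 and 109 in B. In the Fat and Dachsous list of 19 genes, 2 were called higher (10.5%) and 5 lower (26.3%), beside 13.1% and 15.4% of all genes. The Iroquois genes mirr and caup, which pattern dorsal and head ectoderm, were both lower. mirr had 421, 132, 183 and 252 in A and 63.0, 33.1, 6.34 and 41.1 in B. caup had 127, 14.3, 41.4 and 133 in A and 20.4, 0, 6.34 and 3.33 in B, where B1 lay above A2. For caup the authors' deposited table gave a log2 of -3.39 (DESeq adjusted p = 0.0295), and without B1 it was -4.62.

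**Figure D3:**
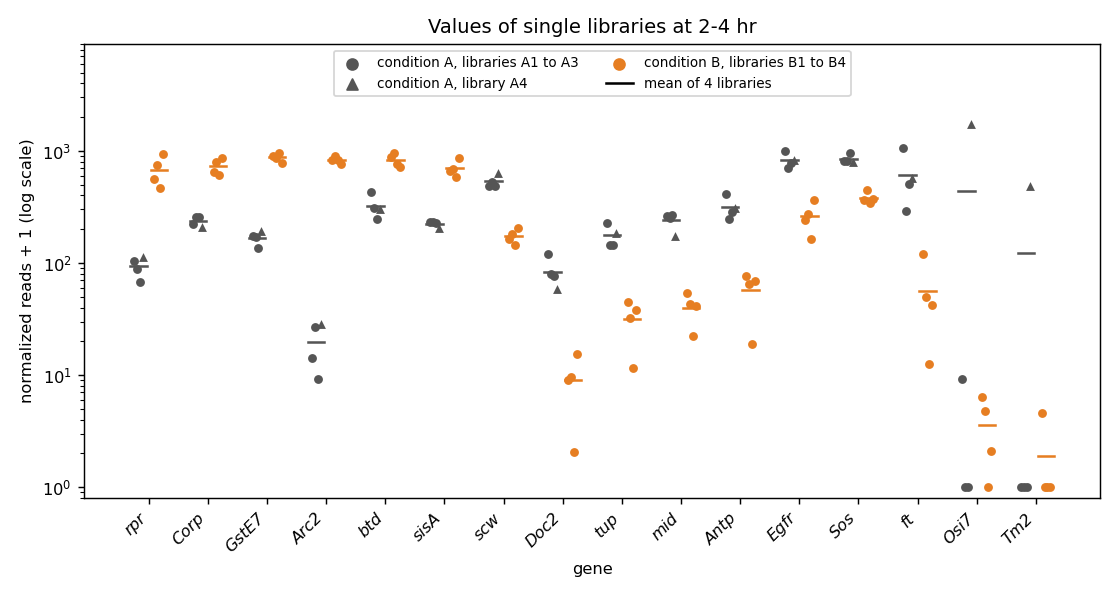
Normalized reads plus 1 in each of the 8 libraries (log axis) for 16 genes, with grey points for condition A, a triangle for library A4, orange points for condition B and a line at each mean. For rpr, Corp, GstE7, Arc2, btd and sisA all points of B lie above those of A, for the genes from scw to ft they lie below, and for Osi7 and Tm2 only library A4 is high.

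The genes that lay out the body axis and its segments were mostly lower in B. The gap genes set broad domains, the pair-rule genes then mark every other segment, and the segment polarity and Hox genes fix the order and identity of each segment. Of 14 gap genes 5 were called lower and 1 higher. Of 11 pair-rule genes 6 were called lower, of 13 segment polarity genes 9, and of 10 Hox complex genes 7, and none of these 3 lists had a gene called higher. The lists' medians were -0.43 for gap, -0.53 for pair-rule, -1.13 for segment polarity and -1.63 for Hox genes, beside -0.01 for all genes. Of the split Hox genes the median was -2.24 with A4 and -1.95 without it. The part of embryo age within the collection window in these falls was not tested.

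Among the gap genes, Kr (Krüppel) of the trunk fell and the head gap gene btd (buttonhead) rose. For Kr the authors' deposited table gave means of 1472 in A and 598.6 in B, a log2 of -1.30 (DESeq adjusted p = 2.42e-06). btd had 430, 310, 244 and 302 normalized reads in A and 877, 961, 756 and 710 in B, without overlap. For btd the authors' deposited table gave a log2 of 1.36 (DESeq adjusted p = 4.59e-12). At 0 to 2 hr btd was already called higher, with a larger log2 of 5.34 in the authors' deposited table. The libraries of A at 0 to 2 hr held 43.5, 40.35, 33.05 and 14.39 normalized reads of btd, and its mean in B was not split. The difference between the times was not tested. At 2 to 4 hr the head genes ems and oc and the kni-related knrl were lower. For ems, oc and knrl the authors' deposited table listed -1.25, -0.78 and -0.96 on the log2 scale.

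Among pair-rule genes, odd (odd skipped) had 955, 806, 624 and 759 in A and 413, 351, 217 and 527 in B. For odd the authors' deposited table gave a log2 of -1.06 (DESeq adjusted p = 9.51e-05). ftz and opa were lower on the log2 scale, by values of -1.11 and -1.30 as the authors' deposited table lists them. run, which also counts X chromosomes, had 981, 841, 759 and 737 in A and 420, 522, 307 and 680 in B. The odd relatives drm and sob, which lie beside it, were lower as well, and the authors' deposited table lists -1.71 for drm and -1.61 for sob.

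Among segment polarity genes, mid (midline), a T-box gene, had 262, 250, 267 and 174 in A and 53.3, 41.6, 21.1 and 40.0 in B. For mid the authors' deposited table gave a log2 of -2.61 (DESeq adjusted p = 1.70e-21). The posterior compartment gene en (engrailed) had 250, 87.1, 157 and 144 in A and 40.8, 18.9, 14.8 and 15.6 in B. For en the authors' deposited table gave a log2 of -2.82 (DESeq adjusted p = 4.69e-05). The ligand gene hh and its receptor gene ptc were lower, and for hh and ptc the authors' deposited table gave log2 values of -1.81 and -1.69. The 4 libraries of B lay below those of A for mid, en and hh, and ptc could not be split in A.

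Hox genes of both complexes were among the lowest. Scr, of the first thoracic and last head segments, had 95.2, 23.6, 48.7 and 71.8 in A and 15.1, 6.61, 1.06 and 6.67 in B. For Scr the authors' deposited table gave a log2 of -3.02 (DESeq adjusted p = 0.000962), and it was -3.65 without B1. Abd-B, of the rear abdomen, had 194, 85.03, 121 and 198 in A and 60.4, 20.8, 14.8 and 23.3 in B. For Abd-B the authors' deposited table gave a log2 of -2.33 (DESeq adjusted p = 0.00014), and without B1 it was -2.93. zen, which has left the Hox role for the amnioserosa, fell less, at a log2 of -0.71 in the authors' deposited table.

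Most dorsoventral and tissue fate lists had many genes called lower. Of the 19 genes of the BMP pathway 11 were called lower and 2 higher. Of 18 dorsal ectoderm and amnioserosa genes 12 were lower and 1 higher. Of 19 ventral neuroectoderm and midline genes 13 were lower and 0 higher, and of 18 mesoderm genes 8 were lower and 2 higher. Of 17 endoderm, hindgut and hemocyte genes 9 were lower and 1 higher, and of 21 proneural and neuroblast genes 8 were lower and 0 higher. The Bearded and E(spl) list was nearer to all genes, with 2 of 10 lower, 0 higher and a median of -0.23, and Brd was not called at a log2 of 0.46 in the authors' deposited table. The medians without A4 over the split genes of the other 6 lists ran from -0.81 for mesoderm to -1.33 for proneural genes.

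BMP signals pattern the dorsal side through a gradient of the ligands Dpp and Scw. scw (screw) had 488, 522, 487 and 634 in A and 163, 180, 143 and 206 in B. For scw the authors' deposited table gave a log2 of -1.62 (DESeq adjusted p = 1.47e-21). dpp had 627, 470, 421 and 568 in A and 264, 261, 129 and 322 in B, and a log2 of -1.10 in the authors' deposited table. The proteases that free the ligands, tld and tok, were both lower, tok more so. tok had 289, 271, 222 and 243 in A and 71.9, 91.6, 50.7 and 111 in B. Within the nucleus, the Mad partner gene shn was lower at a log2 of -0.81 in the authors' deposited table.

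Genes of the dorsal tissues themselves were also lower. The T-box gene Doc2 had 119, 77.9, 75.6 and 57.0 in A and 7.99, 8.50, 1.06 and 14.5 in B. For Doc2 the authors' deposited table gave a log2 of -3.36 (DESeq adjusted p = 3.90e-10). The LIM homeobox gene tup (tailup) had 227, 145, 144 and 186 in A and 43.5, 31.2, 10.6 and 36.7 in B. ush, a cofactor of GATA factors, had 554, 360, 440 and 326 in A and 140, 129, 109 and 96.7 in B, although at 0 to 2 hr it was not called, with a log2 of -0.05 in the authors' deposited table. kay, the Fos gene, was the only gene of this list called higher. Its values were 271, 196, 219 and 308 in A and 472, 505, 436 and 421 in B.

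In the mesoderm the FGF receptor gene htl and its adaptor gene stumps fell. htl had 212, 102, 136 and 126 in A and 30.2, 53.8, 26.4 and 48.9 in B. stumps had 576, 389, 473 and 301 in A and 106, 150, 66.6 and 219 in B. The integrin gene if was lower at a log2 of -1.51 and the zinc finger gene zfh1 at -0.83 in the authors' deposited table, while CG12177 was higher at 1.00. In the ventral neuroectoderm the homeobox gene vnd had 315, 275, 213 and 224 in A and 102, 113, 59.2 and 160 in B. The FGF ligand gene ths and the axon guidance gene sli of the midline were lower on the log2 scale, by values of -1.21 and -1.48 as the authors' deposited table lists them. The neuroblast genes mira and insc, needed for asymmetric division, were lower by -1.77 and -1.74 in the authors' deposited table. insc had 146, 94.3, 135 and 124 in A and 44.4, 34.9, 43.3 and 26.7 in B. In the hindgut, byn had 239, 226, 177 and 171 in A and 107, 81.2, 43.3 and 123 in B.

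Of the signalling pathways, the EGFR and FGF, Wnt, Hedgehog and Notch lists had more genes called lower than the 15.4% of all genes. The counts called lower and higher were 12 and 1 of 26 for EGFR and FGF signalling, 9 and 0 of 22 for Wnt, 6 and 0 of 12 for Hedgehog, 6 and 0 of 15 for Notch, 2 and 0 of 11 for the Toll and immune list and 1 and 1 of 9 for JAK/STAT. The Toll and immune list, at 18.2% lower with a median of 0.08, was near the share of all genes, and JAK/STAT, at 11.1%, was under it. The receptor gene Egfr had 995, 701, 784 and 825 in A and 242, 272, 164 and 365 in B. For Egfr the authors' deposited table gave a log2 of -1.66 (DESeq adjusted p = 2.25e-14). Sos, which links such receptors to Ras, had 809, 811, 949 and 789 in A and 363, 450, 343 and 374 in B. The ligand gene Krn went the other way, with 235, 239, 239 and 214 in A and 415, 389, 393 and 399 in B. For the Notch receptor gene N the authors' deposited table gave means of 5229 in A and 2339 in B, a log2 of -1.16 (DESeq adjusted p = 1.59e-26). The Notch coactivator gene mam and the Notch inhibitor gene numb were lower by -0.86 and -0.77 in the authors' deposited table. Notum, a secreted Wnt inhibitor, had 822, 635, 520 and 759 in A and 311, 245, 144 and 281 in B. The Wnt coreceptor gene arr and the beta-catenin gene arm were lower, and for arr and arm the authors' deposited table gave log2 values of -0.56 and -0.40. Of the immune genes, vir-1 in the JAK/STAT list was higher, at 94.3, 110, 114.9 and 100 in A and 277, 231, 290 and 271 in B.

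**Figure D4:**
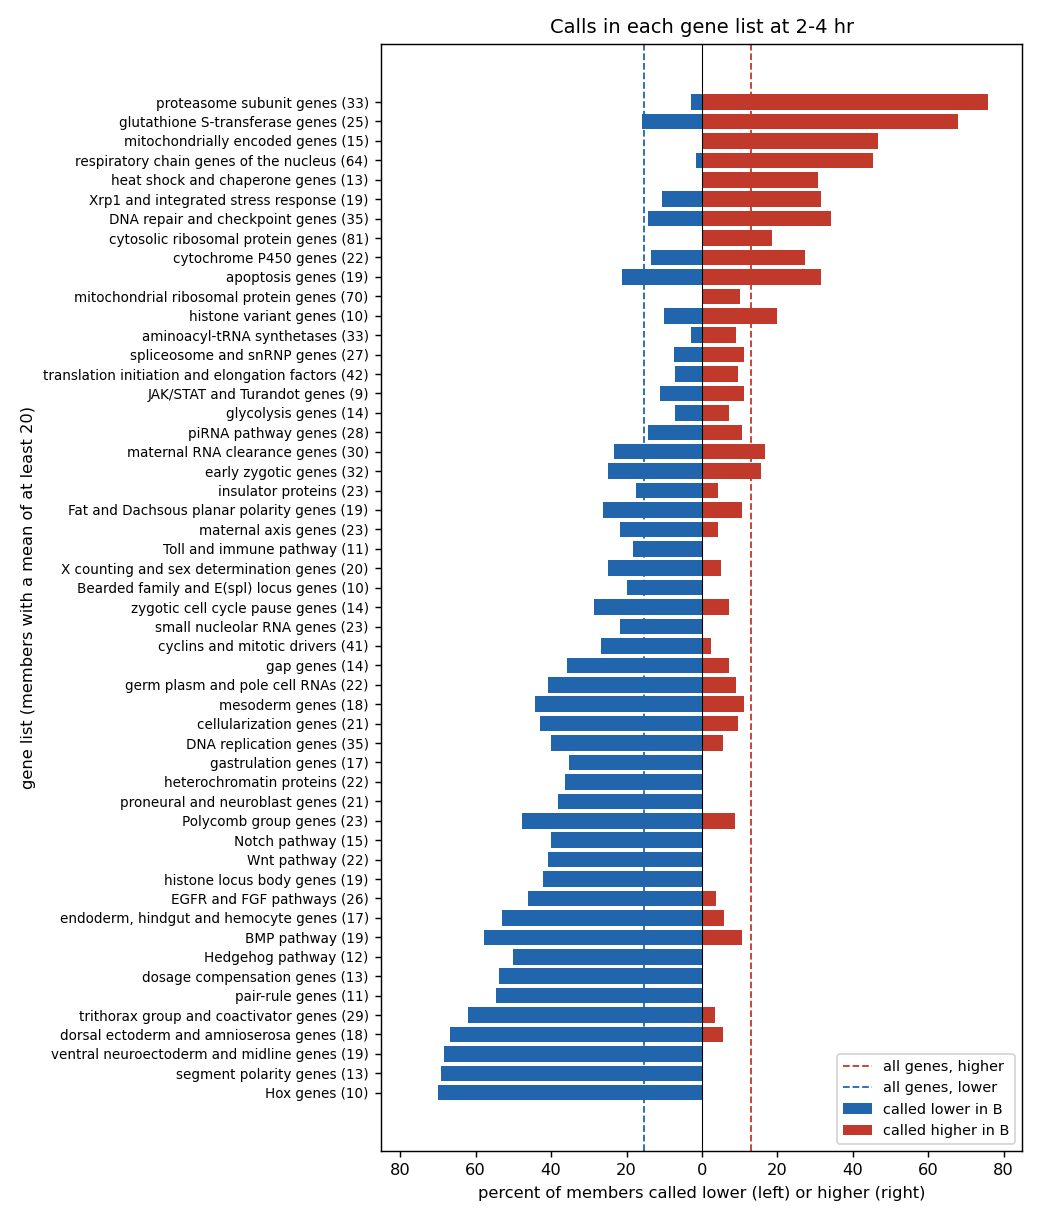
For each gene list with at least 9 members, the blue bar gives the percent of members called lower in B and the red bar the percent called higher, with the number of members in brackets and dashed lines at 15.4% and 13.1%, the shares of all genes. The Hox, segment polarity, ventral neuroectoderm, dorsal ectoderm and trithorax lists reach farthest to the left. The proteasome, glutathione S-transferase and mitochondrial energy lists reach farthest to the right.

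Genes of the first zygotic wave did not move as a block. Of 32 early zygotic genes 8 were called lower (25%) and 5 higher (15.6%), beside 15.4% and 13.1% of all genes. sisA, an X-linked counter of chromosome dose, had 232, 229, 225 and 203 normalized reads in A and 657, 687, 579 and 863 in B. For sisA the authors' deposited table gave a log2 of 1.65 (DESeq adjusted p = 1.09e-14). CG13711 had 278, 370, 303 and 410 in A and 913, 1014, 709 and 1025 in B. Sxl, the sex switch gene, was lower at a log2 of -0.80 in the authors' deposited table. Of 21 cellularization genes 9 were lower and 2 higher. The nuclear shape gene kuk had means of 11880 in A and 3416 in B in the authors' deposited table, a log2 of -1.80 (DESeq adjusted p = 2.40e-32). nullo, which is needed for the furrows between nuclei, had 529, 673, 600 and 541 in A and 947, 873, 715 and 807 in B. The dynein heavy chain gene Dhc64C had 1220, 1250, 1626 and 1417 in A and 647, 875, 647 and 682 in B, and the polarity gene baz was lower at a log2 of -0.61 in the authors' deposited table. Of 17 gastrulation genes 6 were lower and 0 higher, among them the E-cadherin gene shg at a log2 of -0.63 in the authors' deposited table.

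Of the 6 GA-binding and pioneer factor genes, 4 were lower, namely Clamp itself, zld, opa and grh. The epidermal pioneer factor gene grh had means of 1067 in A and 287.1 in B in the authors' deposited table, a log2 of -1.89 (DESeq adjusted p = 1.52e-09). Trl, which encodes the GAGA factor, had 274, 260, 224 and 345 in A and 273, 206, 203 and 203 in B, overlapping ranges, and was not called. psq, another GAGA-binding gene, was not called at a log2 of -0.21 in the authors' deposited table.

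Among the maternal lists, the germ plasm RNAs had the highest share called lower, 40.9%, beside 15.4% of all genes. Of 23 maternal axis genes 5 were lower (21.7%) and 1 higher, and of 22 germ plasm RNAs 9 were lower and 2 higher. Of 30 genes of maternal RNA clearance 7 were lower (23.3%) and 5 higher (16.7%). Of 28 piRNA pathway genes 4 were lower (14.3%) and 3 higher (10.7%), near the 15.4% and 13.1% of all genes. smg, whose product starts the decay of maternal RNAs, had means of 38038 in A and 28469 in B in the authors' deposited table, a log2 of -0.42 (DESeq adjusted p = 7.33e-05). osk, which builds the germ plasm, was lower at a log2 of -0.61 in the authors' deposited table. pgc, which keeps pole cells silent, was higher at 0.76 in the authors' deposited table. ndl, a protease gene of the egg coat, had 11.6, 15.4, 18.6 and 7.97 in A and 105, 88.8, 96.2 and 98.9 in B. The piRNA methyltransferase gene Hen1 had 298, 308, 310 and 270 in A and 574, 585, 828 and 645 in B. The piRNA cluster gene rhi had 531, 495, 550 and 597 in A and 345, 280, 312 and 323 in B. AGO2, of the RNA interference machinery itself, was higher at a log2 of 0.86 in the authors' deposited table (DESeq adjusted p = 4.11e-09).

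Death and stress genes changed in both directions, more often higher than lower. In the fly, rpr, hid and skl lie within 272198 bases of arm 3L and drive caspase-dependent death, and these 3 were called higher. hid had 386, 272, 290 and 404 in A, and for hid the authors' deposited table gave means of 338.0 and 1526, a log2 of 2.17 (DESeq adjusted p = 7.15e-05). Of 19 apoptosis genes 6 were higher (31.6%) and 4 lower (21.1%), beside 13.1% and 15.4% of all genes. The caspase gene Dronc was higher at 0.61 and the TNF receptor gene wgn lower at -2.13 in the authors' deposited table. Of 35 DNA repair and checkpoint genes 12 were higher (34.3%) and 5 lower (14.3%), the last near the share of all genes. The median log2 of that list was 0.02. Xrp1, a bZIP factor induced by DNA damage and by loss of ribosomal proteins, had 118, 90.2, 99.4 and 543 in A, with A4 the highest. For Xrp1 the authors' deposited table gave a mean of 5496 in B, above every library of A, and a log2 of 4.69 (DESeq adjusted p = 3.26e-216). Irbp18, the partner of Xrp1, had 135, 114.7, 125 and 180 in A and 330, 281, 325 and 283 in B. The break repair gene mre11 had 589, 619, 584 and 663 in A and 968, 1013, 896 and 1136 in B. agt, which repairs alkylated guanine, had 67.0, 87.1, 71.5 and 62.6 in A and 146, 220, 163 and 270 in B. The checkpoint kinase gene tefu went the other way, with 626, 699, 719 and 697 in A and 408, 503, 374 and 542 in B.

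Among the detoxification genes, the glutathione S-transferases had 17 of 25 members higher (68%) and 4 lower (16%), beside 13.1% and 15.4% of all genes. All but GstE1 of the 8 genes in the longest run of neighbouring calls, from GstE10 to GstE9 on arm 2R, rose by more than 1 on the log2 scale. GstE7 had 172, 170, 136 and 193 in A and 892, 860, 958 and 783 in B. For GstE7 the authors' deposited table gave a log2 of 2.38 (DESeq adjusted p = 1.86e-56). GstE10 had 14.1, 8.20, 5.18 and 25.1 in A and 185, 174, 168 and 122 in B. In the delta family GstD6 rose, with 13.2, 10.2, 8.28 and 5.70 in A and 358, 350, 243 and 449 in B, and GstD3 fell, with 121, 165, 182 and 174 in A and 23.1, 16.1, 23.3 and 23.3 in B. These genes are close paralogs, and the counting of reads that paralogs share is not stated in the sources used. Of 22 cytochrome P450 genes 6 were higher (27.3%) and 3 lower (13.6%), the last near the share of all genes. Cyp6d4 had 133, 200, 182 and 197 in A and 339, 472, 548 and 537 in B. Of 13 heat shock and chaperone genes 4 were higher and 0 lower, all 4 of them small or stress-induced forms. Hsp23 had 772, 853, 669 and 920 in A and a mean of 2828 in B in the authors' deposited table.

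Cell cycle and replication genes leaned lower by small amounts. Of 35 DNA replication genes 14 were lower (40%) and 2 higher, with a median of -0.25. Of 41 cyclins and mitotic drivers 11 were lower (26.8%) and 1 higher, with a median of -0.13, beside 15.4% lower of all genes. The 11 split cyclins and drivers had a median of 0.17. All libraries of B lay above those of A in 2 of them and below in 0. The helicase gene RecQ4 had 790, 963, 1029 and 798 in A and 550, 608, 560 and 545 in B. CycE, which starts S phase, was lower at a log2 of -0.50, and the mitotic phosphatase gene stg at -0.36, in the authors' deposited table. The histone chaperone gene asf1 was higher at 0.62 in the authors' deposited table. Of 14 genes of the zygotic cell cycle pause, 4 were lower (28.6%) and 1 higher, and the 6 split ones had a median of 0.13. The gene called higher was Hus1-like, with 133, 108, 103 and 144 in A and 245, 222, 224 and 233 in B.

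Chromatin regulators were lower in 18 of 29 cases for the trithorax group and coactivators and in 11 of 23 for the Polycomb group, with 1 and 2 higher. These groups keep developmental genes on and off. For trx the authors' deposited table gave means of 3043 in A and 1566 in B, a log2 of -0.96 (DESeq adjusted p = 1.95e-19). The nucleosome remodelling gene Acf, the bromodomain gene fs(1)h and the CBP gene nej were lower by -0.99, -0.90 and -0.84 in the authors' deposited table. The PRC2 gene Su(z)12 had 915, 849, 1032 and 787 in A and 529, 629, 604 and 564 in B. ph-d, a PRC1 gene, was lower at a log2 of -1.27 in the authors' deposited table. The cohesin gene SMC1 had 488, 309, 466 and 368 in A and 201, 201, 201 and 192 in B. Of 13 dosage compensation genes 7 were lower and 0 higher, counting Clamp. msl-2, the male-limiting subunit, had 617, 471, 383 and 417 in A and 232, 257, 150 and 342 in B. mle had 828, 795, 795 and 734 in A and 562, 523, 527 and 582 in B. Of 19 genes of the histone locus body list 8 were lower and 0 higher, again counting Clamp. Its scaffold gene mxc was lower, and for mxc the authors' deposited table gave a log2 of -0.68 (DESeq adjusted p = 2.05e-09). Of the 3 replication-dependent histone genes with a mean of at least 20 none was called by DESeq, and 2 of the 3 had an unadjusted p under 0.05, in opposite directions. His1:CG33801 was at a log2 of 0.88 in the authors' deposited table (DESeq adjusted p = 0.136), with 34.8, 31.8, 24.9 and 21.6 in A and 67.5, 57.6, 31.7 and 51.1 in B, which overlap. For 1 of the His2B copies, His2B:CG33868, the libraries were apart, with 58.8, 68.6, 59.0 and 57.0 in A and 31.1, 24.6, 30.7 and 36.7 in B.

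Proteasome and respiratory chain genes were often higher, by small amounts. The proteasome had 25 of 33 subunit genes higher and 1 lower. For Rpt3, an ATPase of its base, the values in A were 889, 1083, 1157 and 968, and the authors' deposited table gave a mean of 1593 in B and a log2 of 0.64 (DESeq adjusted p = 1.82e-07). The variants Rpt3R and Prosbeta2R2, known as testis forms, were low in A and rose as well. For Prosbeta2R2 the authors' deposited table gave a log2 of 3.92 (DESeq adjusted p = 1.15e-07), and without A1 it was 4.86. Rpt3R had 27.3, 37.9, 29.0 and 35.3 in A and 131, 84.0, 143 and 94.5 in B. Of 64 nuclear genes of the respiratory chain 29 were higher and 1 lower, and of 15 mitochondrially encoded genes 7 were higher and 0 lower. UQCR-6.4 had 245, 171, 203 and 221 in A and 582, 451, 542 and 418 in B. For mt:CoII the authors' deposited table gave means of 36943 in A and 53707 in B, a log2 of 0.54 (DESeq adjusted p = 7.26e-06). Of 81 cytosolic ribosomal protein genes 15 were higher and 0 lower, near the 13.1% of all genes, with a median of 0.22. Of 70 mitochondrial ribosomal protein genes 7 were higher and 0 lower, a share of 10% that is under that of all genes. The shares called higher were also under 13.1% for translation factors (4 of 42, with 3 lower), aminoacyl-tRNA synthetases (3 of 33, with 1 lower) and glycolysis genes (1 of 14, with 1 lower). Among the 4 translation factors called higher, eIF6, a factor that keeps ribosomal subunits apart, had 247, 203, 266 and 243 in A and 606, 634, 644 and 654 in B. Of the small structural RNAs none was called higher. Called lower were 5 of 23 small nucleolar RNAs (21.7%) and 2 of 8 small nuclear RNAs (25%), shares not far above the 15.4% of all genes. For the 7SK RNA gene snRNA:7SKa the authors' deposited table gave a log2 of -0.81 (DESeq adjusted p = 4.09e-06).

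Among genes with a mean of at least 1000, the largest rises after Xrp1 were of the noncoding RNA lncRNA:CR40469, CG3008, Hsp23, Ctl2 and Xpc. lncRNA:CR40469 had 441, 633, 256 and 366 in A and a mean of 5482 in B in the authors' deposited table, a log2 of 3.69. Xpc, which finds damage for nucleotide excision repair, was higher at a log2 of 1.41, and TfIIA-S, a subunit of a basal transcription factor, at 1.26, in the authors' deposited table. Among abundant falls, the homeobox cofactor gene hth had 895, 954, 532 and 1522 in B and a mean of 3453 in A in the authors' deposited table, a log2 of -1.82 (DESeq adjusted p = 4.78e-09). The axon guidance genes Dscam1 and robo2 and the septate junction gene Lac were lower by -1.71, -1.61 and -1.57 in the authors' deposited table. B3 was the lowest library of B for hth, Dscam1 and robo2.

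Of the visible marker genes of the strains, y (yellow) stood out. It had 11.6, 9.22, 4.14 and 20.5 normalized reads in A and 195, 145, 173 and 182 in B, and a log2 of 3.94 in the authors' deposited table (DESeq adjusted p = 8.08e-32). w was lower at a log2 of -0.52 and ry at -1.76 in the authors' deposited table, and sc, ac and bw were not called. The labels place a marked y chromosome and a TRiP insertion only in the RNAi mothers. Genotype background and loss of Clamp RNA thus cannot be told apart for any gene here. The labels also give only the collection window, and not the age of the embryos within it. Whether the embryos of A and B differed in age was not tested.

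Called genes differed in length from the rest. In the BDGP6 annotation, the median span from first to last exon base was 1851 bases for 911 protein-coding genes called higher, 8536 for 1041 called lower and 2664 for 4970 not called. Genes without introns made up 11.6%, 4.13% and 9.15% of the same groups. Of 2363 genes under 2 kb 20.8% were higher and 2.58% lower. Of 439 genes of 20 to 50 kb 5.01% were higher and 42.4% lower, and of 188 genes over 50 kb 7.98% and 38.8%. The median log2 fell from 0.18 in the shortest group to -0.52 in the longest, and over split genes without A4 from 0.16 to -0.30. At 0 to 2 hr the medians of these 5 groups lay between -0.11 and 0.06. The median mean count differed as well, at 336 for the shortest and 982 for the genes of 5 to 20 kb, and its part in these shares was not tested. The shares of the gene lists above were set beside those of all genes and not of genes of like span. The part of span in the list shares was not tested, and neither was that of embryo age.

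**Figure D5:**
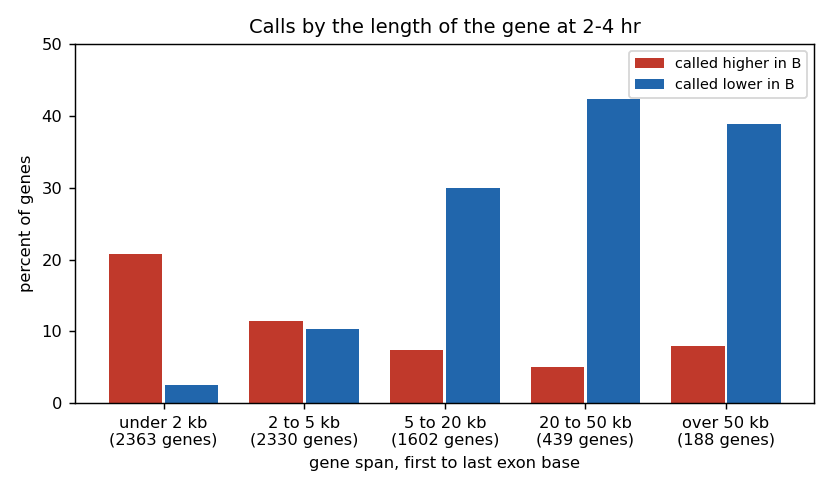
The percent of protein-coding genes called higher (red) and lower (blue) in B at 2 to 4 hr, in 5 groups of gene span from the BDGP6 annotation. The share called higher is 20.8% under 2 kb and 5.01% at 20 to 50 kb, while the share called lower is 2.58% and 42.4%.

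Neighbours were taken among the annotated genes with a mean of at least 20, so genes under that mean were passed over. Neighbouring called genes of like direction then formed 222 pairs, 42 runs of 3 and 11 runs of 4, besides some longer ones. How many such runs would arise by chance was not tested. After the GstE run, the longest were 6 lower genes on 3L from Ptpmeg to klar, with trh, the tracheal regulator, among them, and 5 lower genes on 2R that include gsb and Kr. A run of 5 higher genes on 3L, from CG15876 to CG13711, spanned 0.60 to 1.52 on the log2 scale (authors' deposited table). The genes drm, sob, odd and for formed a run of 4 on 2L. The strand setting of the counting is not stated in the sources used, so overlapping neighbours may share reads. The share called higher was 26.7% on chromosome 4, where 20 of 75 genes were higher and 4 lower, and 11.2% to 14.4% on the other arms. On the X, 11.9% of 1232 genes were higher and 18% lower, with a median log2 of -0.04.

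At 0 to 2 hr, when maternal RNA dominates, fewer genes were called. Of 7037 genes with a mean of at least 20, 691 were higher in B (9.82%) and 726 lower (10.3%). Of the genes called higher at 2 to 4 hr, 315 were higher at 0 to 2 hr too, which is 32.5% of the later and 45.3% of the earlier set among the members. Of those called lower, 208 were lower at both times, 18.2% of the later and 28.7% of the earlier set. The remaining calls were largely those of 2 to 4 hr alone, with 612 of the higher and 889 of the lower genes not called earlier. The difference between the times was not tested. Cyp6d2, Pvf2, Xrp1, Arc2, CG12290, GILT2, Wsck, CG2187 and CG32512 were called in the same direction at both times. At 0 to 2 hr 1 of 7 Hox genes with a mean of at least 20 was lower and 0 higher, although their median log2 was then -3.34, beside -1.63 at 2 to 4 hr. That median rests on uneven libraries of A, in which Abd-B had 103, 53.5, 144 and 0 normalized reads. The late muscle gene Tm2 had 0, 0, 439 and 0 in them. A missing call at 0 to 2 hr is thus no sign of an unchanged gene. Of 11 segment polarity genes 0 were lower and 1 higher, and of 29 trithorax genes 2 were lower and 2 higher.

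Some groups had calls of opposite sign at the earlier time. Of the 81 cytosolic ribosomal protein genes 46 were lower and 0 higher at 0 to 2 hr, where 10.3% of all genes were lower. At 2 to 4 hr 0 were lower and 15 higher, a share of 18.5% that is near the 13.1% of all genes. For the nuclear respiratory chain genes the earlier counts were 20 lower and 0 higher of 63, and for mitochondrial ribosomal protein genes 13 lower and 0 higher of 70. The later shares called higher were 45.3% for the respiratory chain and 10% for mitochondrial ribosomal protein genes, the last under that of all genes. Single genes called in opposite directions numbered 41 that were lower and then higher and 45 that were higher and then lower. Vps13, a lipid transfer protein gene, had 764, 639, 800 and 728 normalized reads in A and 367, 535, 427 and 530 in B at 2 to 4 hr. For Vps13 the authors' deposited table gave a log2 of -0.66 at that time and 0.75 at 0 to 2 hr, with DESeq calls both times.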

How the data were processed

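Total RNA was made into NuGEN Ovation libraries with rRNA depletion, as the labels' protocols state. Tools listed in the submitters' processing notes are HTSeq 0.5.4p3, TopHat2 2.0.13 and DESeq, with dm3 as genome build. The authors deposited 2 comparison tables, which hold a normalized signal (mean normalized read counts), a fold or ratio of B over A, its log2, and p-values, per the file headers. Calls are the authors' adjusted p-values, and no differential test was run here, since the tables hold no labelled libraries. Whole reads per library were solved from the deposited condition means by lattice reduction, keeping solutions that were unique at a relative tolerance of 8e-15. On simulated means at 2 to 4 hr, 10862 of 10862 split genes were right for A and 10648 of 10648 for B. The split was chosen after seeing the data, and its values are given without a test.

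Genes, 66 lists and rules were chosen with earlier results of these data known, and 18 list entries were corrected after list counts had been seen. Named are the marker genes, the 15 largest rises and falls among all called genes and among those with a mean of at least 1000, up to 5 members per list by adjusted p (all where 8 or fewer were measured), members of the 6 longest runs, and the 8 clearest genes of opposite direction. The text gives part of these. Gene skl was named after its value was seen. Symbols were matched for 15002 IDs. Promoter motifs were not analysed here. Software was matplotlib 3.10.9, pandas 2.3.3, scipy 1.17.1 and numpy 2.4.6 under Python 3.11.15.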

Additional observations from a re-analysis of the deposited data

Results flagged for a closer look

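Of 126 groups of 4 libraries, from 63 called genes, 10 had a library far from the other 3 by Dixon's test at 95%, where chance alone flags about 1 in 20. Library A4 was the high one of condition A for snRNA:U5:14B (82.01 normalized reads), CG12290 (39.86), GstE8 (128.7) and GstE3 (54.67). Library A1 was the high one for CG13857 and Cyp6d2, each at 3.31. In condition B, B4 was high for Wsck (36.68), B1 was high for nrv2 (53.26) and CG12224 (70.13), and B3 was low for CG8620 (103.6).

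In 3 of the named genes every library of B was below every library of A at 2 to 4 hr and above it at 0 to 2 hr, and the difference between the times was not tested. They are the ATR checkpoint kinase gene mei-41, with a log2 of -0.79 at 2 to 4 hr, the repair polymerase gene PolQ at -1.09 and l(1)G0020 at -1.01, as in the authors' deposited table. PolQ and l(1)G0020 were named because they were called in opposite directions at the 2 times, so their reversal follows from that choice.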

How the results depend on the processing

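With an adjusted p under 0.01 in place of 0.05, 645 genes were higher in B in place of 968, and with at least 2-fold 224 were higher and 331 lower. The other thresholds, minimum means and adjustments moved neither count by over 1.5 times. Leaving out each library in turn kept the direction of 655 of 655 split genes called higher and of 567 of 567 called lower. These genes were chosen by their calls in the same libraries, so this is no separate check. Of 2281 alternatives over 354 named genes, 50 moved the fold by over 1.5 times and 0 reversed a called gene. Leaving out A1 for CG13857, and A4 or B1 for Tm2, left a condition at 0 and gave no value. Of 924 alternatives of list counts 204 moved by over 1.5 times, and of 263 alternatives of list medians 60 moved by over 0.1. No paired analysis was possible because the deposited columns carry no replicate numbers. Fits of counts with edgeR or another tool were not run, since the split libraries carry no labels. Depth limits genes with few reads, and the abundant genes were not split.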
